A study of Mus musculus with 6 samples.

Results

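The lysosomal genes described here are the cathepsins, the lysosome-associated membrane proteins (LAMPs), and the subunits and accessory proteins of the vacuolar ATPase (V-ATPase). Members were chosen by symbol alone: Cts followed by a letter, Lamp followed by a digit, Atp6v or Atp6ap. The rule found 48 of the 23557 genes of the table. They are 14 cysteine cathepsins, 4 aspartic or serine cathepsins and 4 Lamp genes. By symbol, 9 are genes of the V0 sector and 14 of the V1 sector of the V-ATPase, and 3 are accessory genes.

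The data are bulk RNA sequencing of tumors of CT26, a colon carcinoma cell line of the BALB/c strain, grown under the skin of BALB/c mice that were 7 weeks old and had received 500000 cells each. The control group (NaCl) was 3 tumors of mice given intraperitoneal NaCl, and the treated group (H89) was 3 tumors of mice given H89 at 10 mg/kg by the same route. H89 is an isoquinoline sulfonamide that inhibits protein kinase A and some other kinases. Injections were given 2 times a week from day 6, and the tumors of both groups were removed on day 14. CT26 is 1 cell line and the hosts had an intact immune system, so a tumor's RNA is a mixture of tumor cell and host cell RNA. In such bulk samples, fewer cells of a type and less RNA per cell cannot be told apart.

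The lysosome is the acidic compartment in which cells degrade proteins taken up from outside or delivered by autophagy. The V-ATPase acidifies it: the V1 sector in the cytosol hydrolyses ATP and turns the proteolipid ring of the membrane-bound V0 sector, which carries protons inward. Cathepsins are the proteases that work at this low pH, and some of them have special tasks in immune cells, such as cutting the invariant chain of MHC class II or activating granzymes. LAMPs line the inner face of the lysosomal membrane.

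The 6 tumors held between 27067349 and 31958793 estimated counts. Values per tumor are given as counts per 1000000 (CPM), scaled by edgeR's TMM factors, which lay between 0.956 and 1.06. All genes averaging 0.5 CPM or more, 13118 in number, entered edgeR's quasi-likelihood test, and p-values were adjusted over all of them by the Benjamini-Hochberg method. A log2 fold change is given with its standard error (SE), and a positive one means a higher level in the H89 tumors. Of the 48 members, 35 passed this filter and 13 did not. Nothing in the sources used here says more of the 3 tumors of a group than that they came from different mice of 1 experiment, so p-values measure only the spread between these tumors.

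Little of the lysosomal gene set passed the test, and what differed went both ways. At an adjusted p under 0.05, 1 of the 35 members was called, Atp6v0c, which encodes the proteolipid of the V0 ring and was higher in H89 tumors. Over all genes tested, 1.59% were called, 0.861% higher and 0.724% lower. At an unadjusted p under 0.05 there were 10 members, 28.6% of 35, where 25.0% of all genes tested had such a p. Of these, 5 were higher in H89 tumors (Atp6v0c, Ctsc, Ctse, Ctss and Ctsw; 13.1% of all genes tested) and 5 were lower (Atp6v0d1, Ctsb, Ctsd, Ctsl and Lamp1; 11.9% of all genes tested). Both shares lay near those of all genes. The levels of the groups did not overlap for 13 members, 37.1% of 35, where 30.6% of all genes tested did not overlap. Of these, 7 were higher and 6 lower in H89 tumors, beside 15.2% and 15.5% of all genes tested. The balance moved with the scaling. Under quantile normalization 5 members were higher and 1 lower at an unadjusted p under 0.05 in limma (9.89% and 11.1% of all genes tested). The exact two-sided permutation test gave p = 0.1 for each of the 13 on the TMM scale, the smallest that 3 tumors against 3 allow. With Bonferroni adjustment 0 members passed edgeR's test, DESeq2 or voom, beside 10, 12 and 14 members at an unadjusted p under 0.05 (25.0%, 24.9% and 33.0% of all genes tested). Of all 13118 genes tested, 0 passed edgeR's test with Bonferroni adjustment, so the 0 members say nothing particular of lysosomal genes. That share was not counted for DESeq2 and voom. The adjusted calls depended on the run. DESeq2, fitted to all genes with a count above 0 in any tumor, called 8 members after Benjamini-Hochberg adjustment. They were Atp6v0c, Ctsc, Ctse, Ctss and Ctsw, higher, and Atp6v0d1, Ctsd and Ctsl, lower. The tool and the set of genes fitted both differed from those of edgeR's run. Over all genes tested DESeq2 called 10.6%, 4.84% higher and 5.77% lower. Voom was run with a weight for each tumor, 2.465 for NaCl tumor 2, 2.25 for H89 tumor 2 and 0.487 to 0.869 for the others. It called 4 members, Atp6v0c, Ctse and Ctss higher and Ctsd lower, beside 12.9% of all genes tested, 6.08% higher and 6.78% lower.

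**Figure D1:**
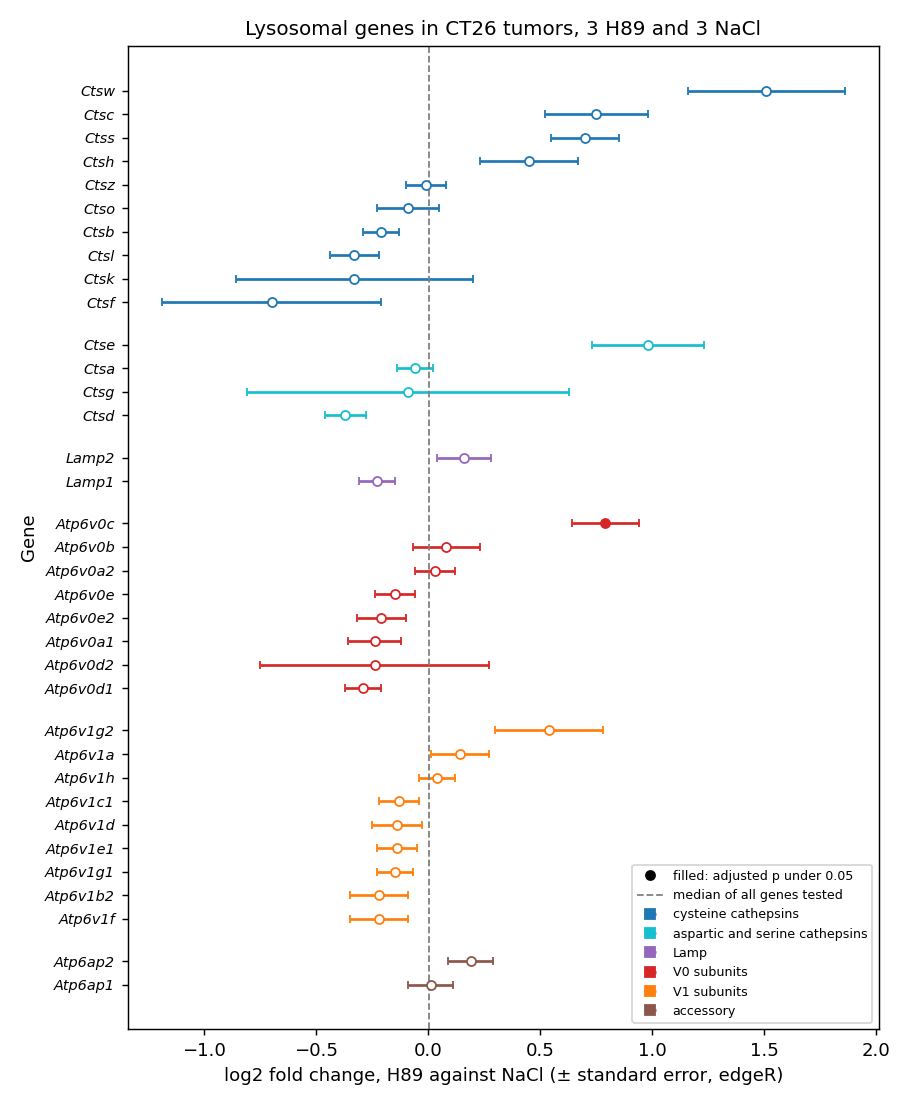
Log2 fold change of H89 against NaCl (x axis, with SE as bars) for the 35 members that passed the filter, grouped by family, with the 1 gene of adjusted p under 0.05 filled and the median of all genes tested as a dashed line. The cysteine cathepsins spread from -0.70 (Ctsf) to 1.51 (Ctsw), while 15 of the 17 V-ATPase subunits lay between -0.29 and 0.14.

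The medians of the families were small. The median log2 fold change was -0.05 over 10 cysteine cathepsins, -0.08 over 4 aspartic and serine cathepsins, -0.03 over 2 Lamp genes, -0.18 over 8 V0 genes, -0.14 over 9 V1 genes and 0.10 over 2 accessory genes, beside 0.004 over all genes tested. The sign of the cysteine cathepsin and Lamp medians turned with the scaling, to 0.07 and 0.11 under quantile normalization. By TMM-scaled CPM, the summed level of the 14 cathepsins was 4105, 4096 and 4254 CPM in NaCl tumors 1 to 3 and 3840, 3699 and 4089 CPM in H89 tumors 1 to 3. That of the 17 V-ATPase subunits was 1142, 1017 and 1068 CPM against 1031, 940 and 995 CPM. The cathepsin sums were lower in every H89 tumor than in any NaCl tumor, and the V-ATPase sums overlapped. As shares of all counts, without TMM factors, the cathepsin sums also overlapped, at 0.393%, 0.406% and 0.417% in NaCl and 0.377%, 0.381% and 0.435% in H89 tumors.

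Many lysosomal genes are controlled by the transcription factors TFEB, TFE3 and MITF, which bind an E-box, CACGTG, in a wider motif called CLEAR. These letters were looked up in the RefSeq promoter windows (GRCm38.p6, from 250 bases before to 50 bases after the start of a gene), which 37 of the 48 members have. All motifs searched read the same on both strands, and the 8-letter form of CLEAR, TCACGTGA, holds the E-box. The E-box stood in the windows of 9 members, 24.3% of 37, and in 8.09% of the windows of all 27025 genes. The 8-letter form stood in those of 5 members (Atp6v0d1, Atp6v0e, Atp6v1a, Ctsa and Ctsd), 13.5% against 1.12%. A 10-letter form of CLEAR was also searched and stood in 0 of the 37 windows, beside 0.37% of all genes. So few windows cannot tell 0 from such a share. The cAMP response element TGACGTCA stood in 0 of the 37 windows, beside 2.03% of all genes, and 37 windows are too few to tell 0 from that share. The stretches below are examples from members whose match, with the letters printed after it, lies wholly before the start site. Ctsf has such a match too that is not shown. A match of Ctsa, at -13 to -6 from the start site, also lies before it, but the letters after it do not. Capitals mark 1 match in each, and the Lamp1 and Atp6v0b stretches hold a further E-box in lower case. They are read on the gene's own strand: Ctsd at chr7:142387899-142387946 (minus strand), Ctsl at chr13:64370731-64370770 (minus), Lamp1 at chr8:13159080-13159125 (plus), Atp6v0b at chr4:117887340-117887385 (minus) and Atp6v1a at chr16:44139364-44139411 (minus).
Ctsd: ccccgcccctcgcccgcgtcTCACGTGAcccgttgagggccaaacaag
Ctsl: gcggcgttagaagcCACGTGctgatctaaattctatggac
Lamp1: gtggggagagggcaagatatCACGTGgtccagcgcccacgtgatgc
Atp6v0b: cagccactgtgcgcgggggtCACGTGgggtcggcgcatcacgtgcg
Atp6v1a: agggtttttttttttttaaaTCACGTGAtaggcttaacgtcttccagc
The Lamp1 window held 4 E-boxes, those of Ctsd, Ctsa and Atp6v0b held 2 each, and those of Ctsl, Ctsf, Atp6v1a, Atp6v0d1 and Atp6v0e 1 each. Of the 9 members with a match, 7 had a log2 fold change below 0, with a median of -0.23, and under quantile normalization 6 did, with a median of -0.10. Of the 16 tested members with a window and no match, 9 had one below 0, with a median of -0.05, and under quantile normalization 8 did, with a median of -0.01. Over all tested genes with a window, 53.2% of those with an E-box and 49.4% of those without it had a log2 fold change below 0 (56.0% and 53.4% under quantile normalization). A match is a run of letters and was not shown to be a bound site.

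Of the 10 tested cysteine cathepsins, Ctsc, Ctss and Ctsw had higher levels in H89 tumors at an unadjusted p under 0.05, Ctsb and Ctsl had lower ones, and 5 had no such p. Ctss encodes cathepsin S, which trims the invariant chain in antigen-presenting cells, and lies on chromosome 3 from 95526786 to 95556403 (GRCm38). Its level was 212, 244 and 179 CPM in NaCl tumors 1 to 3 and 332, 300 and 398 CPM in H89 tumors 1 to 3. The groups did not overlap, and the log2 fold change was 0.70 (SE 0.15, edgeR adjusted p = 0.0593). It missed the threshold in edgeR's test, passed it in DESeq2 (adjusted p = 0.000433), and stayed between 0.58 and 0.82 with each tumor left out. Ctsk, the collagen-degrading cathepsin of osteoclasts, is the neighbour of Ctss (95499256 to 95509362). It stood at 8.31, 3.43 and 3.11 CPM in NaCl and 3.10, 6.87 and 1.85 CPM in H89 tumors, and the groups overlapped.

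Ctsc encodes cathepsin C, a dipeptidyl peptidase that activates granzymes and neutrophil serine proteases (chromosome 7 from 88278085 to 88310888). Its level was 184, 270 and 207 CPM in NaCl and 340, 272 and 497 CPM in H89 tumors 1 to 3. The highest NaCl tumor and the lowest H89 tumor nearly met, at 270 and 272 CPM. The log2 fold change was 0.75 (SE 0.23, edgeR adjusted p = 0.108), and it was 0.47 at its lowest with 1 tumor left out.

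Ctsw encodes cathepsin W, a cathepsin of natural killer and cytotoxic T cells (chromosome 19 from 5465043 to 5468507), and its exons overlap those of Fibp. It was a gene of low level, at 4.78, 3.21 and 2.27 CPM in NaCl and 11.5, 5.77 and 12.0 CPM in H89 tumors. All H89 tumors lay above all NaCl tumors, H89 tumor 2 by the least. The log2 fold change was 1.51 (SE 0.35, edgeR adjusted p = 0.0722), and that was the widest difference of any tested member.

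Ctsh encodes cathepsin H, an aminopeptidase. It was at 14.3, 25.2 and 26.3 CPM in NaCl and 28.2, 27.4 and 34.3 CPM in H89 tumors. The groups were apart by little, and NaCl tumor 1 was well below the other two. The log2 fold change was 0.45 (SE 0.22, edgeR adjusted p = 0.249).

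Ctsb and Ctsl, the endopeptidases cathepsin B and cathepsin L, were the cathepsins with the most counts. Ctsb (chromosome 14 from 63122462 to 63145923) was at 1456, 1389 and 1437 CPM in NaCl and 1258, 1169 and 1262 CPM in H89 tumors. The groups did not overlap with this scaling, and the log2 fold change was -0.21 (SE 0.08, edgeR adjusted p = 0.163), but 0.03 under quantile normalization. Ctsl (chromosome 13 from 64359337 to 64370890) was at 1102, 1068 and 1309 CPM in NaCl and 840, 991 and 937 CPM in H89 tumors. Here too the groups did not overlap, with a log2 fold change of -0.33 (SE 0.11, edgeR adjusted p = 0.129), and of -0.10 under quantile normalization. Of the 31-letter words in the annotated transcripts of Ctsl, 28.2% also occur in transcripts of other genes, mostly in Gm47123, and of those of Ctsb 13.0%, mostly in Fdft1. How reads were divided between such genes was not tested.

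Ctsz, which encodes the carboxypeptidase cathepsin Z, showed how close the tumors could be. It was at 297, 306 and 303 CPM in NaCl and 334, 279 and 290 CPM in H89 tumors, a log2 fold change of -0.01 (SE 0.09), which became 0.11 under quantile normalization. Ctso and Ctsf also overlapped between groups, from 14.8 to 20.3 CPM and from 1.40 to 6.51 CPM over the 6 tumors. The other 4 cysteine cathepsins, Ctsj, Ctsm, Ctsq and Ctsr, are rodent genes known from the placenta and lie together on chromosome 13. Ctsj and Ctsm were at 0 in all tumors, Ctsq had 0 or 1 count, and Ctsr had 7 counts in H89 tumor 1 and 0 elsewhere. In all, edgeR called 0 of the 10 tested cysteine cathepsins after adjustment, DESeq2 4 and voom 1, and 5 had an unadjusted p under 0.05 in edgeR's test. Of all genes tested, edgeR called 1.59% after adjustment, DESeq2 10.6% and voom 12.9%, and 25.0% had an unadjusted p under 0.05 in edgeR's test.

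**Figure D2:**
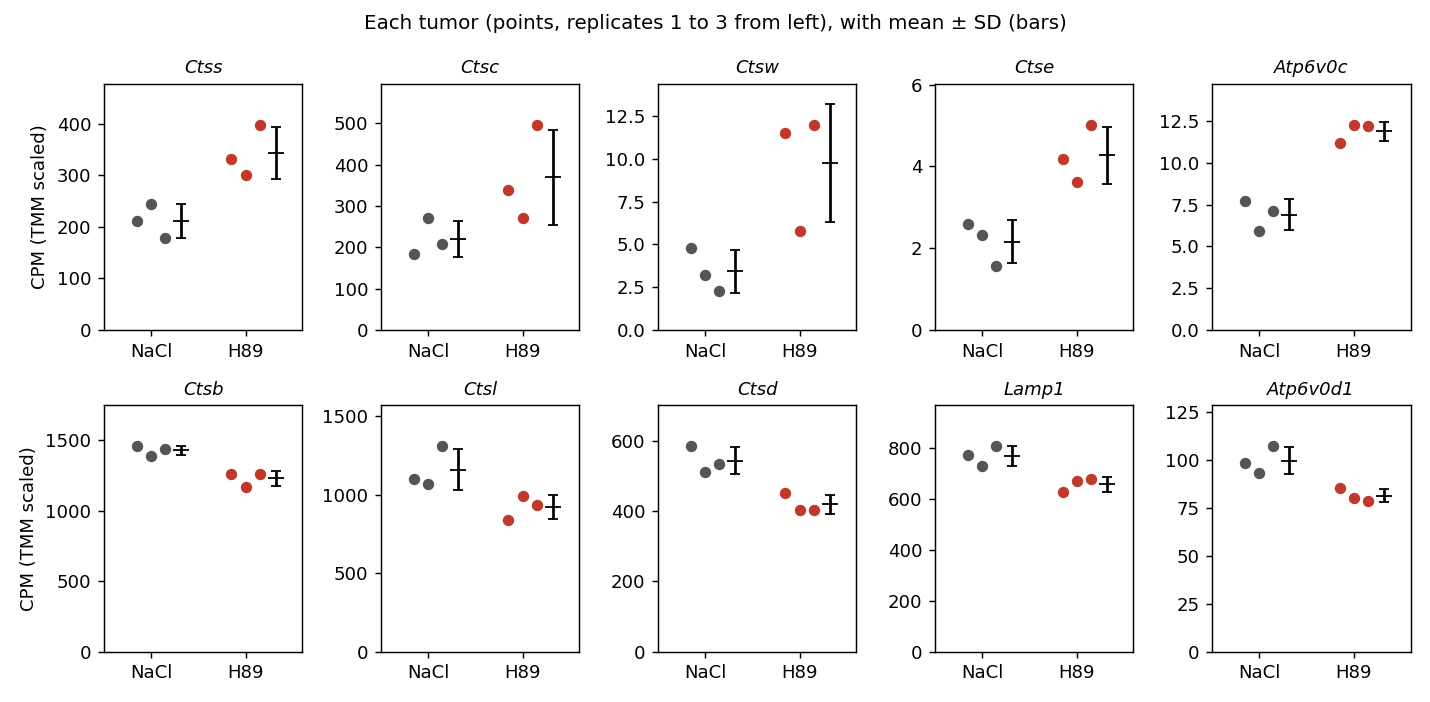
Level in CPM (y axis, from 0) of the 10 members with an unadjusted p under 0.05, with a point for each tumor and bars for the mean and SD of the 3 tumors. The upper panels hold the 5 genes with higher levels in H89 tumors and the lower panels the 5 with lower levels (Ctsb is not lower under quantile normalization, with a log2 fold change of 0.03).

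Of the 4 aspartic and serine cathepsins, Ctse was higher and Ctsd lower in H89 tumors at an unadjusted p under 0.05, and Ctsa and Ctsg overlapped between groups. Ctsd encodes cathepsin D, the main aspartic protease of lysosomes (chromosome 7 from 142375911 to 142388038). Its level was 585, 511 and 535 CPM in NaCl and 451, 404 and 405 CPM in H89 tumors 1 to 3. All 3 H89 tumors were below all NaCl tumors, with a log2 fold change of -0.37 (SE 0.09, edgeR adjusted p = 0.0800). DESeq2 and voom put it past the threshold (adjusted p = 0.00345 and 0.0246), and under quantile normalization the log2 fold change was -0.18. In the annotation, 33.2% of its 31-letter words are shared with Gm49369, which overlaps its exons.

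Ctse, which encodes cathepsin E, an aspartic protease of gastric epithelium and of some immune cells (chromosome 1 from 131638306 to 131675505), had low levels that went the other way. They were 2.59, 2.31 and 1.57 CPM in NaCl and 4.17, 3.62 and 5.02 CPM in H89 tumors. All H89 tumors lay above all NaCl tumors, and the log2 fold change was 0.98 (SE 0.25, edgeR adjusted p = 0.0800). DESeq2 gave an adjusted p of 0.0167 and voom one of 0.0398.

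Ctsa encodes the carboxypeptidase that also protects neuraminidase and beta-galactosidase in the lysosome. Its level was 219, 249 and 223 CPM in NaCl and 222, 216 and 224 CPM in H89 tumors. These overlapped, with a log2 fold change of -0.06 (SE 0.08) that became 0.05 under quantile normalization. Ctsg, a serine protease of neutrophil granules, lay between 0.183 and 1.55 CPM and overlapped between groups. edgeR called 0 of these 4 genes after adjustment, DESeq2 and voom 2 each, and 2 had an unadjusted p under 0.05 in edgeR's test. The shares of all genes tested were 1.59%, 10.6% and 12.9% after adjustment in edgeR, DESeq2 and voom, and 25.0% at an unadjusted p in edgeR.

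Levels of different cathepsins were compared per length, as CPM divided by the length in kb of the principal transcript in GENCODE M21. In NaCl tumors the order by mean CPM per kb was Ctsb (301), Ctsd (256), Ctsz (210), Ctsl (188), Ctss (156) and Ctsc (88.4). In H89 tumors it was Ctsb (259), Ctss (253), Ctsz (209), Ctsd (198), Ctsl (150) and Ctsc (148). Neighbours in these orders such as Ctsb and Ctss in H89 tumors or Ctsl and Ctsc in H89 tumors lay closer than the spread between tumors.

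Of the summed CPM per kb of the 14 cathepsins, Ctss made up 12.2%, 13.8% and 10.3% in NaCl tumors 1 to 3 and 18.5%, 18.2% and 20.9% in H89 tumors 1 to 3. The share of Ctsd averaged 19.8% ± 1.53 over the NaCl and 15.1% ± 1.33 over the H89 tumors (mean ± SD, n = 3 each). That of Ctsb was 23.3% ± 0.778 and 19.7% ± 0.715. These 3 shares did not overlap between groups, while those of Ctsz (16.2% ± 0.172 and 15.9% ± 1.59) did. The share of Ctsc was 6.84% ± 1.30 in NaCl and 11.1% ± 2.70 in H89 tumors, but 3.41% and 5.65% if the length of all annotated exons is used, since the exons of Ctsc add up to far more than its principal transcript. A ratio inside a tumor does not depend on a scaling by 1 factor per tumor, such as TMM, though quantile normalization can change it. The CPM of Ctss was 0.361, 0.477 and 0.334 times that of Ctsd in NaCl tumors and 0.736, 0.742 and 0.982 times in H89 tumors. The CPM of Ctsc was 0.167, 0.253 and 0.158 times that of Ctsl in NaCl tumors and 0.405, 0.275 and 0.530 times in H89 tumors. Both ratios were higher in every H89 tumor than in any NaCl tumor. Other ratios overlapped between groups. That of Ctss to Ctsk was 25.5, 71.0 and 57.5 in NaCl and 107, 43.7 and 215 in H89 tumors. That of Ctsw to Ctsf was 3.41, 0.729 and 0.348 in NaCl and 6.44, 1.84 and 4.6 in H89 tumors. All these ratios, and those of Lamp and V0 genes given below, were picked after the levels had been seen and carry no test.

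**Figure D3:**
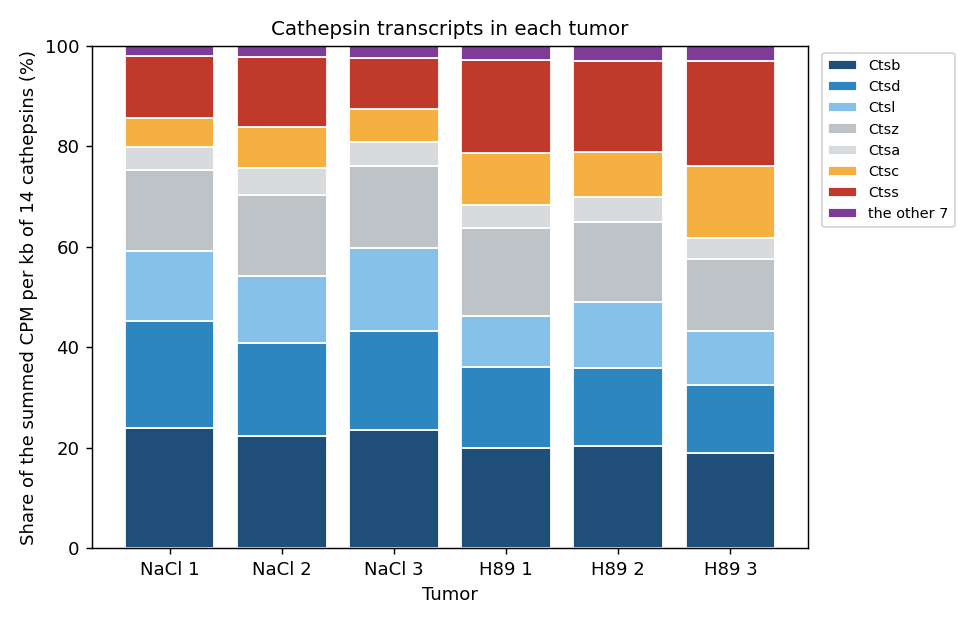
Share of each cathepsin (y axis, %) in the summed CPM per kb of the 14 tested cathepsins, with a bar for each tumor. Ctss took 10.3% to 13.8% in the NaCl tumors and 18.2% to 20.9% in the H89 tumors.

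Lamp1 and Lamp2 encode the major glycoproteins of the lysosomal membrane. Lamp1 (chromosome 8 from 13159161 to 13175338) had the highest level per length of all members in both groups. It was at 774, 730 and 807 CPM in NaCl and 626, 672 and 678 CPM in H89 tumors. No NaCl tumor was as low as any H89 tumor, with a log2 fold change of -0.23 (SE 0.08, edgeR adjusted p = 0.157), and of -0.03 under quantile normalization.

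Lamp2, on the X chromosome, was at 212, 192 and 198 CPM in NaCl and 198, 213 and 262 CPM in H89 tumors. These overlapped, and the log2 fold change was 0.16 (SE 0.12, edgeR adjusted p = 0.418). The CPM of Lamp2 was 0.274, 0.263 and 0.246 times that of Lamp1 in NaCl tumors and 0.317, 0.318 and 0.386 times in H89 tumors. Lamp3, of mature dendritic cells and lung epithelium, had 0 to 2 counts in a tumor, and Lamp5, known from neurons and plasmacytoid dendritic cells, 0 to 4. Of the 2 tested Lamp genes, edgeR, DESeq2 and voom called 0 after adjustment, and Lamp1 had an unadjusted p under 0.05 in each of these tools. In the same order, the tools called 1.59%, 10.6% and 12.9% of all genes tested after adjustment. At an unadjusted p under 0.05 the shares were 25.0%, 24.9% and 33.0%.

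In the V0 sector, Atp6v0c was the only member of any family past the threshold in edgeR's test. It encodes the proteolipid subunit c, of which the rotating ring is mostly built (chromosome 17 from 24163866 to 24169702). Its level rose from 7.73, 5.91 and 7.10 CPM in NaCl tumors to 11.2, 12.3 and 12.2 CPM in H89 tumors. The groups did not overlap, and the log2 fold change was 0.79 (SE 0.15, edgeR adjusted p = 0.0481). The call was narrow: with each tumor left out in turn the adjusted p lay between 0.0685 (without H89 tumor 1) and 0.145 (without NaCl tumor 3), and it was 0.0870 under quantile normalization. Per length, Atp6v0c was below most of its partners, at 5.84 CPM per kb in NaCl and 10.1 in H89 tumors. Atp6v0a2 was near it in NaCl tumors, at 6.0, and below it in H89 tumors, at 6.11. Atp6v0d2 (0.374 and 0.315) and Atp6v1g2 (3.18 and 4.61) were lower in both groups. Atp6v0b, the related proteolipid of the same ring, stood at 88.7 and 93.7 CPM per kb. Of the 31-letter words in the transcripts of Atp6v0c, 11.9% also occur in its annotated pseudogenes Atp6v0c-ps1 and Atp6v0c-ps2, which are not among the genes of the table. The share of its reads that the authors' counting placed elsewhere was not tested.

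The other V0 genes had smaller differences. Atp6v0d1, the subunit that links the ring to the central stalk (chromosome 8 from 105524465 to 105566047), was at 98.5, 92.9 and 107 CPM in NaCl and 85.1, 80.1 and 78.7 CPM in H89 tumors. All H89 tumors were below all NaCl tumors, with a log2 fold change of -0.29 (SE 0.08, edgeR adjusted p = 0.0980), and DESeq2 put it past the threshold (adjusted p = 0.0341). The CPM of Atp6v0c was 0.0785, 0.0636 and 0.0664 times that of Atp6v0d1 in NaCl tumors and 0.132, 0.154 and 0.155 times in H89 tumors.

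Atp6v0b was at 103, 82.6 and 80.4 CPM in NaCl and 113, 80.5 and 87.7 CPM in H89 tumors, with a log2 fold change of 0.08 (SE 0.15) that was -0.08 without H89 tumor 1. Atp6v0e, a small membrane subunit, was at 105, 97.8 and 92.2 CPM in NaCl and 97.2, 84.9 and 83.3 CPM in H89 tumors (log2 fold change -0.15, SE 0.09). Both overlapped between groups, as did Atp6v0e2, Atp6v0a1, Atp6v0a2 and Atp6v0d2. Atp6v0d2, known from osteoclasts and some macrophages, was at 0.465 to 1.63 CPM, and its share of the summed CPM per kb of the 2 d subunit genes was 0.608% in NaCl and 0.633% in H89 tumors. Atp6v0a4, a kidney subunit, had 2 to 6 counts.

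The a subunit, along which protons cross the membrane, has 4 genes, one of which, Tcirg1, does not carry an Atp6v symbol and came from a list of other V-ATPase genes. Tcirg1 was at 136, 138 and 96.8 CPM in NaCl and 234, 160 and 172 CPM in H89 tumors. The groups did not overlap, with a log2 fold change of 0.61 (SE 0.18, edgeR adjusted p = 0.105). Atp6v0a1 was at 80.9, 84.1 and 79.6 CPM against 66.9, 80.8 and 59.5 CPM, and Atp6v0a2 between 30.2 and 34.7 CPM. Per length, Tcirg1 was 63.2%, 62.5% and 55.2% of the a subunit transcripts in NaCl tumors and 77.4%, 66.6% and 72.5% in H89 tumors. Atp6v0a1 was 28.5%, 28.9% and 34.5% in NaCl and 16.8%, 25.5% and 19.1% in H89 tumors, so neither share overlapped between groups.

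In the V1 sector, edgeR, DESeq2 and voom called 0 of 9 tested genes after adjustment, and 0, 1 and 2 of them had an unadjusted p under 0.05. Over all genes tested these shares were 1.59%, 10.6% and 12.9% after adjustment and 25.0%, 24.9% and 33.0% at an unadjusted p. Atp6v1f was at 147, 130 and 129 CPM in NaCl and 139, 101 and 108 CPM in H89 tumors (log2 fold change -0.22, SE 0.13). Atp6v1b2, one of the subunits that bind nucleotide, was at 143, 109 and 126 CPM in NaCl and 99.1, 99.0 and 126 CPM in H89 tumors (log2 fold change -0.22, SE 0.13). Both overlapped between groups.

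The G subunit, part of the stalks that hold the rotor's housing, had both V1 genes without overlap, in opposite directions. Atp6v1g1 was at 80.1, 77.1 and 83.7 CPM in NaCl and 76.1, 70.5 and 69.9 CPM in H89 tumors, with a log2 fold change of -0.15 (SE 0.08, edgeR adjusted p = 0.255). Atp6v1g2, known from neurons, was at 5.69, 5.57 and 3.34 CPM in NaCl and 7.93, 7.27 and 5.94 CPM in H89 tumors, with a log2 fold change of 0.54 (SE 0.24, edgeR adjusted p = 0.206). Its lowest H89 tumor lay just above its highest NaCl tumor. Per length Atp6v1g2 made up 4.33% ± 1.26 of the G subunit transcripts in the NaCl and 6.75% ± 0.706 in the H89 tumors (mean ± SD, n = 3 each), or 2.68% and 4.22% by the length of all exons. The exons of Atp6v1g2 overlap those of Nfkbil1, and 24.0% of the 31-letter words of Atp6v1g1 occur in other annotated genes. The 5 remaining tested V1 genes, Atp6v1a, Atp6v1c1, Atp6v1d, Atp6v1e1 and Atp6v1h, overlapped between groups, with log2 fold changes from -0.14 to 0.14. The subunits known from kidney or testis were at or near 0: Atp6v1b1 had 0 to 7 counts, Atp6v1c2 0 to 4, Atp6v1g3 0 to 5, and Atp6v1e2 0 in every tumor. Atp6v1fnb, a gene beside Atp6v1f that is placed in this sector by its symbol only, had 0 or 1 count.

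The accessory proteins, which help to assemble the V-ATPase, did not differ beyond the spread. Atp6ap1 was at 213, 175 and 180 CPM in NaCl and 200, 188 and 185 CPM in H89 tumors (log2 fold change 0.01, SE 0.10, and -0.04 without NaCl tumor 2). Atp6ap2, also known as the prorenin receptor, was at 51.0, 51.4 and 59.9 CPM in NaCl and 57.6, 61.0 and 66.1 CPM in H89 tumors (log2 fold change 0.19, SE 0.10). Both genes are on the X chromosome. Both overlapped between groups, edgeR, DESeq2 and voom called 0 of them after adjustment, and voom gave Atp6ap2 an unadjusted p under 0.05. Of all genes tested, these tools called 1.59%, 10.6% and 12.9% after adjustment, and voom gave 33.0% an unadjusted p under 0.05. Atp6ap1l was at 0 in every tumor.

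**Figure D4:**
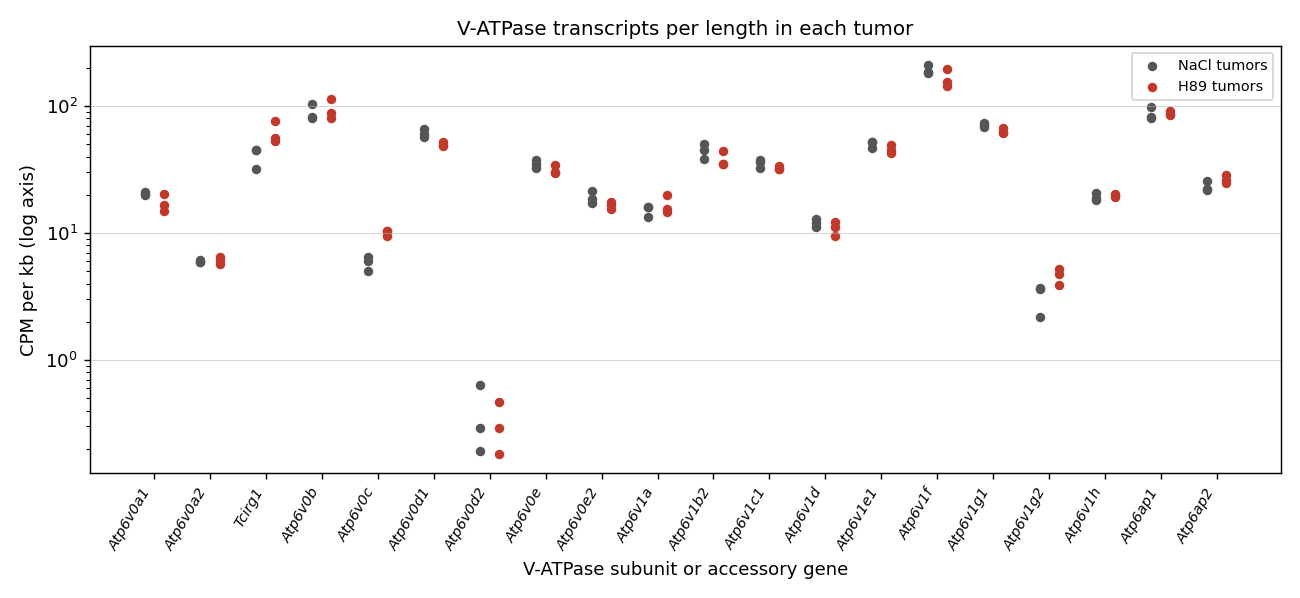
Level of the tested V-ATPase subunit and accessory genes and of Tcirg1 in CPM per kb of transcript (y axis, log scale), with a point for each tumor, NaCl in grey and H89 in red. Atp6v0c (4.99 to 6.53 in NaCl and 9.51 to 10.4 in H89 tumors) and Tcirg1 (31.8 to 45.3 and 52.7 to 76.9) were apart between groups, and Atp6v0c lay below most other subunits in all 6 tumors.

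The other genes of the lysosome were taken from 8 lists of 153 genes, of which 142 were tested. At an unadjusted p under 0.05 there were 20, which is 14.1% beside 25.0% of all genes tested, with 14 higher and 6 lower in H89 tumors. At such a p, 13.1% of all genes tested were higher and 11.9% lower, the shares to set beside each list below. Over the 142 genes the log2 fold change had a median of 0.02. After adjustment edgeR called 1, Zkscan3, and called 0 under quantile normalization or without any 1 tumor. The list of MiT/TFE factors and other regulators (17 tested, 2 higher and 1 lower at an unadjusted p under 0.05) holds it. Zkscan3, a zinc finger protein described as a repressor of lysosomal genes, was at 33.2, 39.1 and 37.6 CPM in NaCl and 52.9, 55.2 and 52.7 CPM in H89 tumors. These values were apart, with a log2 fold change of 0.55 (SE 0.09, edgeR adjusted p = 0.0413). Tfe3 had a log2 fold change of -0.24 (SE 0.09, edgeR adjusted p = 0.149) and Vps16, of the tethering complex of late endosomes, one of 0.20 (SE 0.07, edgeR adjusted p = 0.152).

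Of 40 lysosomal hydrolases, 2 were higher and 1 lower at an unadjusted p under 0.05. They were Manba, beta-mannosidase (log2 fold change 0.36, SE 0.14), Acp2, an acid phosphatase (0.19, SE 0.08), and Rnaset2b, a ribonuclease (-0.59, SE 0.15). Of 6 activators and partners of hydrolases none had such a p in edgeR's test. Of 31 other lysosomal membrane proteins, 5 were higher and 0 lower, beside 13.1% and 11.9% of all genes tested. Slc11a1, the metal transporter of phagosomes, led them at 16.6, 22.5 and 17.4 CPM in NaCl and 31.6, 23.5 and 44.9 CPM in H89 tumors, with a log2 fold change of 0.83 (SE 0.23, edgeR adjusted p = 0.0952). Slc38a9, the arginine sensor of mTORC1 (0.44, SE 0.14), and the channels Mcoln2 (0.53, SE 0.18) and Tpcn2 (0.28, SE 0.10) followed. After adjustment edgeR called 0 genes of these 3 lists.

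Of 13 genes of sorting to lysosomes, 2 were higher and 2 lower at an unadjusted p under 0.05. Igf2r, a mannose 6-phosphate receptor, had a log2 fold change of 0.38 (SE 0.12) and Gga3 one of 0.28 (SE 0.11), while the adaptor genes Gga1 and Ap1s1 had -0.30 (SE 0.10) and -0.25 (SE 0.10). Of 12 tested V-ATPase genes outside the symbol rule, 2 were higher, Tcirg1 and Oxr1 (0.24, SE 0.10). Of 16 tested genes of Ragulator, the Rag GTPases and mTORC1, 1 was lower, Rragc (-0.21, SE 0.09). Of 7 tested inhibitors of cathepsins and serine proteases, Cst6 was lower (-0.64, SE 0.22) and Spint2 higher (0.55, SE 0.22). The most abundant inhibitor, cystatin C (Cst3), was at 481, 457 and 458 CPM in NaCl and 530, 417 and 453 CPM in H89 tumors. After adjustment edgeR called 0 genes of these 4 lists.

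Markers of the cell types that these tumors could hold were summed per tumor and stand beside the cathepsins with roles in those cells. The 8 cytotoxic lymphocyte genes summed to 95.9, 49.8 and 19.3 CPM in NaCl and 84.9, 49.4 and 182 CPM in H89 tumors. All 8 had a log2 fold change above 0, and Cd8a (1.76, SE 0.53), Ncr1 (1.45, SE 0.45) and Cd8b1 (1.37, SE 0.55) had an unadjusted p under 0.05. Gzmb and Prf1, whose products kill target cells, were the largest parts of the sum in NaCl tumor 1, at 40.2 and 26.2 CPM, while Cd8a was at 3.62 CPM there and at 8.66 CPM in H89 tumor 1. The sums overlapped and the levels of Ctsw did not. The part of lymphocyte content in the levels of Ctsw and Ctsc was not tested.

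The 12 macrophage genes summed to 1320, 2179 and 1977 CPM in NaCl and 1799, 1788 and 2162 CPM in H89 tumors. These sums overlapped, 11 of the 12 had a log2 fold change above 0 with a median of 0.16, and 1 (Fcgr1, 0.57, SE 0.22) had an unadjusted p under 0.05. The plasmacytoid dendritic cell list summed to 254, 220 and 160 CPM in NaCl and 416, 194 and 308 CPM in H89 tumors, with 4 of its 6 genes higher and Cox6a2 lower at an unadjusted p under 0.05. Cox6a2, which went against the others, was the only gene of the list called after adjustment (log2 fold change -1.87, SE 0.23, edgeR adjusted p = 0.0407). Bst2, which interferon induces in many cell types, made up most of these sums, at 243, 208 and 148 CPM in NaCl and 400, 181 and 299 CPM in H89 tumors, and was not among the 4. Ccr9, 1 of these 4, is a gene that the study singled out from these tumors. The part of macrophages and dendritic cells in the levels of Ctss, Ctsc and Slc11a1 was not tested.

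The 7 CT26 tumor cell genes summed to 832, 800 and 930 CPM in NaCl and 641, 782 and 771 CPM in H89 tumors. These sums did not overlap, and Krt18, Krt20 and Areg were lower at an unadjusted p under 0.05. Krt18 was singled out by the study from these tumors. Cd44 and Gja1 carried most of the sums and each overlapped between groups, with log2 fold changes of -0.21 and -0.03, and Krt8, at 0.149 to 2.17 CPM, had one of 1.03. Which cells of the tumors the Cd44 and Gja1 RNA came from was not tested, so these sums are not a measure of tumor cell content. The 6 fibroblast genes summed to 2707, 2560 and 2476 CPM in NaCl and 3564, 3377 and 2778 CPM in H89 tumors, also without overlap, with Col1a2, Col3a1 and Dcn higher. The part of tumor cell and fibroblast content in the levels of Ctsb, Ctsd, Ctsl and Lamp1 was not tested. The lists of osteoclast-type giant cells and of keratinocytes summed to 20.5 to 42.6 CPM and 3.03 to 5.21 CPM over the 6 tumors, with Calcr, Krt1, Krt15, Dsg1a and Ivl at 0 in all of them. The sums of the other lists overlapped between groups. Skeletal muscle genes reached 20.5 CPM in H89 tumor 1, beside 1.36 to 2.92 CPM in the other tumors.

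**Figure D5:**
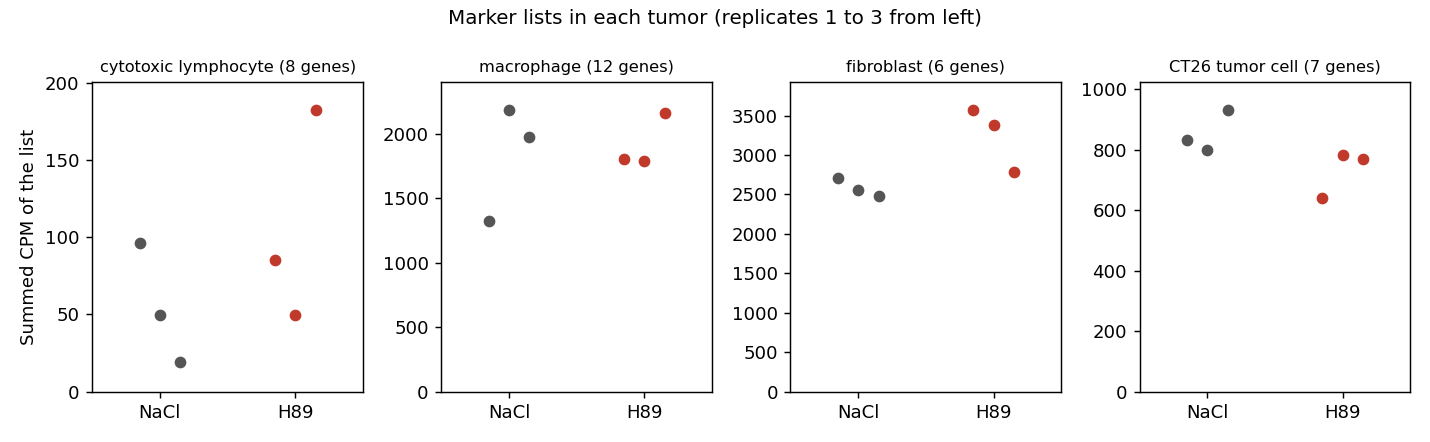
Summed CPM (y axis, from 0) of 4 lists of marker genes, with a point for each tumor. The cytotoxic lymphocyte and macrophage sums overlapped between groups, the fibroblast sums were higher in the 3 H89 tumors (2778 to 3564 against 2476 to 2707) and the CT26 sums, mostly Cd44 and Gja1, lower (641 to 782 against 800 to 930).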

How the data were processed

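RNA of 6 tumors was read on a BGISEQ-500 sequencer. The authors' table gives each gene's estimated count in each tumor, as deposited without scaling for depth or length (58.6% to 61.4% of nonzero values were within 0.01 of whole numbers). The submitters' processing notes name kallisto, DESeq2 and GRCm38. Groups and replicate numbers came from the sample labels.

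Counts were rounded and tested with edgeR 4.0.16 (R 4.3.3) as described above, with treatment as the only term, and SE is the absolute log2 fold change over the square root of the F statistic. Alternatives were other filters, scalings (limma 3.58.1), pseudocounts and tools (DESeq2 1.42.0, voom), a replicate block, and each tumor left out. DESeq2 was fitted to all genes with a count above 0 in any tumor, and voom gave each tumor a weight. The members, gene lists and rules were chosen with earlier results of these data known. Members named with values are those with an unadjusted p under 0.05, those without overlap and an absolute log2 fold change above 0.3, and in each family the 3 of highest CPM and the 1 of widest difference. Ctsk, Ctso, Ctsf, Ctsg, Atp6v0a1, Atp6v0a2 and Atp6v0d2 were added to account for their families. Of a list, up to 4 genes of smallest p under 0.05 are named, and Cst3 was added after its values were seen. Positions and lengths are from GENCODE M21. The error of counting reads is part of the spread between tumors and was not separated from it.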

Additional observations from a re-analysis of the deposited data

How the results depend on the processing

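Of the 22 members named by rule, 17 kept their direction in every alternative run, each tumor left out included. These were 16 for each member but 15 for Ctse, which a filter of 5 CPM leaves out. Atp6v0c lost its call under quantile normalization (log2 fold change 0.64, limma adjusted p = 0.0870), with the replicate number as a block (0.79, edgeR adjusted p = 0.0710) and without any 1 tumor (0.69 to 0.88). The number of members with an adjusted p under 0.05, 1 as reported, was 2 without a filter, 8 with DESeq2, 4 with voom, 0 under quantile normalization, 0 with the replicate block and 0 without any 1 tumor. Of all genes tested, 1.59% were called as reported, 10.6% with DESeq2 and 12.9% with voom. At an unadjusted p under 0.05 it fell from 10 to 6 under quantile normalization. Tumors with the same replicate number did not deviate together (correlations 0.163, 0.061 and -0.025), so the block was not taken as a pairing.

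Directions turned for Ctsb (0.03) and Ctsa (0.05) under quantile normalization, for Ctsz (0.03 with a filter of 5 CPM, 0.11 under quantile normalization, -0.09 to 0.05 without 1 tumor), for Atp6v0b (-0.08 without H89 replicate 1, up to 0.20 without other tumors) and for Atp6ap1 (-0.000954 without a filter, -0.00482 with DESeq2, -0.04 to 0.11 without 1 tumor). Family medians moved by more than the spread between tumors for Lamp (0.11, quantile), V0 (-0.07 with voom, -0.22 to -0.04 without 1 tumor), aspartic and serine cathepsins (-0.23 to 0.52 without 1 tumor, the highest without NaCl replicate 1) and cysteine cathepsins (0.25 at 5 CPM, 0.07 quantile, 0.11 voom, 0.10 without NaCl replicate 1). Among the lysosome lists, the 20 genes at an unadjusted p under 0.05 became 10 to 23 without 1 tumor. The 1 adjusted call among 142 genes became 4 with DESeq2 and 5 with voom, which called 10.6% and 12.9% of all genes tested. It became 0 under quantile normalization, with the block and without any 1 tumor. With the length of all exons, added after seeing the data, mean shares in NaCl and H89 tumors were 21.2% and 18.2% for Ctsb, 3.41% and 5.65% for Ctsc, 14.0% and 22.6% for Ctss, 18.8% and 18.7% for Ctsz, 10.9% and 8.76% for Atp6v0a2, 97.3% and 95.7% for Atp6v1g1, and 2.68% and 4.22% for Atp6v1g2. The causes of these shifts were not tested, and 3 tumors a group limit the precision.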
